A study of Mus musculus with 147 samples.

Results

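The Hox clusters are 4 runs of neighbouring homeobox genes, and their expression was followed here through the whole of male germ cell development in the mouse. The members are all rows of the deposited UMI count table whose symbol is Hox, a cluster letter a to d and a position number, which gave 39 of 31053 genes. No measured value was used in this choice.

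Hox proteins are homeodomain transcription factors that give cells along the body axis their positional identity. Genes at the 3′ end of a cluster, with the low numbers, are switched on first and closest to the head, and genes at the 5′ end, with the high numbers, last and closest to the tail. Polycomb complexes keep the clusters silent, Trithorax complexes such as those of Kmt2a keep them open, Cdx factors activate the central genes, and Pbx, Meis and Pknox proteins bind DNA together with Hox proteins. Primordial germ cells (PGCs) arise among mesoderm cells that switch Hox genes on, and Prdm1 (Blimp1) is known as a repressor of this somatic programme in their precursors.

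Cells came from offspring of C57BL/6 females and males carrying the transgenes Blimp1-mVenus and Stella-ECFP (BVSC), and were sequenced from 28 time-points, E6.5 to adults, by a modified STRT-seq that counts the 3′ ends of transcripts by unique molecular identifiers (UMIs). All cells used here were wild type for Helq. No agent was given. The study describes a PCR for Sry to select males at E10.5 and E11.5, and none for earlier embryos. Part of the E10.5 cells carry no sex in their label. At E8.5 to E10.5 cells were sorted from embryos and at E11.5 to E18.5 from male gonads, into a reporter-positive gate (BVSC, with Stella-ECFP alone from E14.5) and a reporter-negative gate (Negative); at E13.5 to E16.5 the gonads were cut into a proximal, a central and a distal part. Postnatal cells to PND14 were picked by their look under the microscope, PND30 cells were sorted on DNA content (1N, 2N and 4N), and adults were 8 to 10 weeks old. A pool is the cells of 1 time-point and 1 replicate number, and every time-point had at least 2 pools, which the study describes as biological replicates. Of 11896 wild-type cells, 11598 in 61 pools had more than 2000 genes and 10000 to 1000000 UMIs. Their median depth was 284518 UMIs and 9489.5 genes. The replicate in every test is the pool: UMIs of the cells of a class or gate were summed per pool over at least 10 cells and given as counts per 1000000 UMIs (CPM). Since 1 UMI marks the 3′ end of 1 transcript, a CPM is not scaled by gene length, and levels of different members are set side by side on that count of 3′ ends.

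Cells were classed by marker genes, none of them a Hox gene. At E6.5 to E10.5 this gave 568 PGC-like, 627 mesoderm-like, 309 epiblast-like and 431 endoderm-like cells, and 376 cells had no name. From E11.5 on there were 7571 germ cells, 1302 somatic cells and 414 cells with no name. Near the limits between classes lay 216 of the PGC-like cells, 60 of the mesoderm-like, 374 of the germ and 52 of the somatic cells. The 7 germ cell markers summed to 691 to 2072 CPM in the germ cell sums of E11.5 to E13.5 and to 33.1 to 515 CPM in the reporter-negative sums. The 14 gonadal somatic markers summed to 12.7 to 65.9 CPM and 1464 to 5559 CPM. The germ cell sums hold reporter-positive cells that were classed as germ by these same markers, so their values were bounded by the class limits. The reporter-negative sums hold all cells of that gate. In germ cell sums of E16.5 to E18.5 the somatic markers were at 197 to 628 CPM. Some libraries stood apart. All 48 reporter-positive cells of E8.5 replicate 1 were endoderm-like, as were 32 of those of E8.5 replicate 3, where the rest had no name. The PGC-like cells of E8.5 therefore come from replicate 2 alone. The reporter-positive cells of E17.5 replicate 1 held 25 somatic cells, E6.5 replicate 1 was epiblast-like where the other E6.5 pools were mesoderm-like, and the germ cells of adult replicate 1 had 456 CPM of gonadal somatic markers against 15.1 to 33.4 CPM in the other pools from PND30 on. Libraries share the same 96 well barcodes by design, and no barcode occurred more than once within a library.

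On mm10 the Hoxa cluster with 11 members is on the minus strand of chromosome 6. The Hoxb cluster with 10 members is at chr11:96194316-96368256, the Hoxc cluster with 9 members at chr15:102921103-103036852 and the Hoxd cluster with 9 members at chr2:74668310-74765142, all on the plus strand. Hoxd4 had no UMI in any cell. It shares 52.3% of its exonic bases with other genes of the same strand and Hoxd3 62.3%, so levels of Hoxd3 and Hoxd4 are uncertain. Hoxb3 shares 52.9% with the antisense gene Hoxb3os, where the strand setting of the counting is not given in the sources used here. The other 38 members had UMIs, most of all Hoxd8 with 50171 over all wild-type cells.

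Hoxd8, Hoxd9 and Hoxd10 lie side by side and were among the 4 highest members of reporter-negative cells. In germ cells from PND30 on only Hoxd8 of these was high. The 250 bases before their start sites are therefore shown (RefSeq, GRCm38.p6, plus strand, 5′ to 3′), with CpG dinucleotides in capitals. The first lies at chr2:74704365-74704614, the second at chr2:74697513-74697762 and the third at chr2:74691641-74691890.
Hoxd8: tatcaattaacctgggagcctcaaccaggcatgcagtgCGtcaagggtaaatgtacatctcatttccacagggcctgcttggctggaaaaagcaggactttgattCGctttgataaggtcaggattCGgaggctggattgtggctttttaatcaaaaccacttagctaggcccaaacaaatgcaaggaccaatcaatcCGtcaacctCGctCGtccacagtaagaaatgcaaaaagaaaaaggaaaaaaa
Hoxd9: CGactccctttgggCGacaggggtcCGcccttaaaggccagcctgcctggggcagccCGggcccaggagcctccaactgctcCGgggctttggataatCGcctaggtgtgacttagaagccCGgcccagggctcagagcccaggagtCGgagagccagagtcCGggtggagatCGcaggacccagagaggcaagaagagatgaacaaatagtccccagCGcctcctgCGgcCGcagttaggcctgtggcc
Hoxd10: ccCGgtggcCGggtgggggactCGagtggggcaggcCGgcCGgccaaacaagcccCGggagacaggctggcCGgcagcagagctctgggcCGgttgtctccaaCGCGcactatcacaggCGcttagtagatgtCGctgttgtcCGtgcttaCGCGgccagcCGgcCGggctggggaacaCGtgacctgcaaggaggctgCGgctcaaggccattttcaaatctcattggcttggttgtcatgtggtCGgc
They hold 6, 13 and 20 CpGs and 44.4%, 65.2% and 65.6% G and C. Among all 32841 promoters of the same length the median was 6 CpGs and 52.4% G and C, and among the 24 promoters that were found for 22 members the median was 58.6% G and C. The letters TGATNNAT, a motif bound by Pbx and Hox proteins together, were searched on both strands. They occur in 4 of these 24 promoters (16.7%), those of Hoxb1, Hoxa2, Hoxb8 and Hoxd11, and in 7.69% of all promoters. The match of Hoxb1, the member with the highest level in any group, starts 162 bases before its start site at chr11:96365585-96365614, with the motif in capitals.
Hoxb1: tgattggggggTGATGGATgggcgctggga

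Summed over the 39 members, Hox transcripts were abundant in early mesoderm, nearly lost in PGCs and early gonadal germ cells, present again in germ cells from E15.5 on, and abundant in most sums of gonadal somatic cells. The mesoderm-like sums of E7.5 had 350 and 512 CPM, and the PGC-like sums of E7.5 had 28.9, 71.4 and 98.6 CPM. PGC-like cells of E8.5 to E10.5 had 20.5 ± 19.3 CPM (SD, n = 6 pools, of E8.5 only replicate 2), and germ cells of E11.5 to E13.5 had 11.7 ± 5.55 CPM (n = 6). At E15.5 the germ cell sums reached 94.8 and 43.8 CPM, and at E16.5 to E18.5 235 ± 66.8 CPM (n = 6). After birth they were at 145.8 ± 71.5 CPM at PND0 to PND4 (n = 10), 58.2 ± 10.8 CPM at PND5 to PND8 (n = 8), 59.4 ± 14.9 CPM at PND10 to PND14 (n = 6) and 81.8 ± 19.2 CPM from PND30 to the adult (n = 6). Reporter-negative cells of E11.5 to E18.5 had 364 ± 134.7 CPM (n = 16) and somatic cells of PND0 to PND14 192 ± 117.5 CPM (n = 15). Somatic sums were not high throughout. They were lowest at PND12 in replicate 2 with 29.4 CPM, where germ cells of the same pool had 77.9 CPM, at PND7 with 61.5 and 73.6 CPM, at PND14 with 63.6 CPM and at E17.5 in replicate 1 with 84.6 CPM, where germ cells had 262 CPM. In these low sums the 4 Sertoli cell markers had medians of 2099 to 3129 CPM per cell, and their part was not tested. Other somatic sums had as much of these markers. Medians were 2845, 2520 and 2583 CPM in replicate 1 of PND5, PND6 and PND12, whose Hox sums were 182, 229 and 162 CPM. In PND6 replicate 2 they were 2717 CPM, with a Hox sum of 92.5 CPM. 

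**Figure D1:**
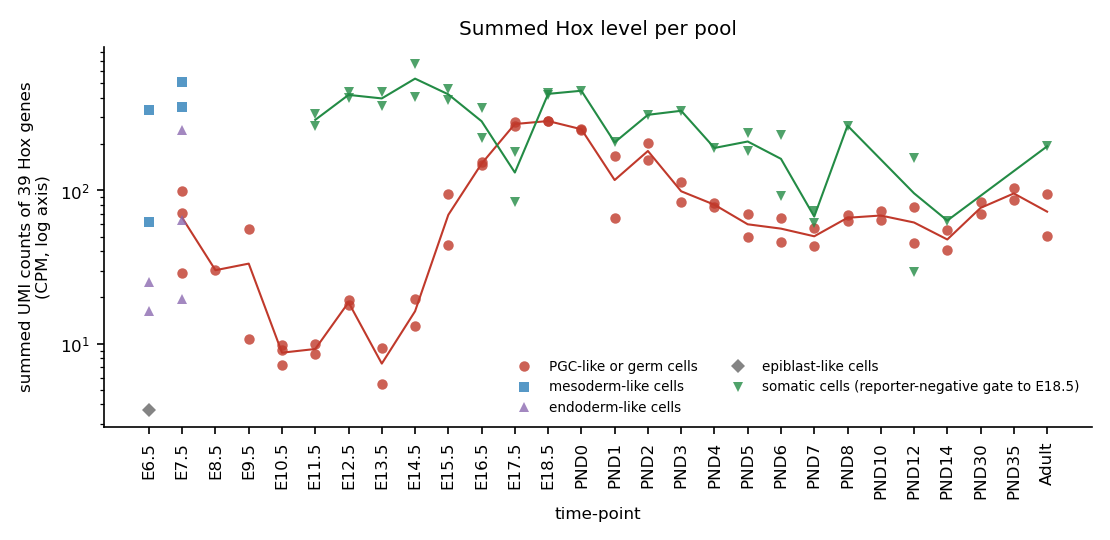
Summed CPM of the 39 Hox members (log axis) by time-point, with 1 point per pool and class. Lines join the means of germ cells and of somatic cells. Germ cell points lie between 5.41 and 19.4 CPM at E11.5 to E13.5 and between 146.7 and 286 CPM at E16.5 to E18.5, while reporter-negative and somatic points stay above them at most time-points.

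Single cells showed the same course. A median of 8 members had a UMI in mesoderm-like cells of E7.5, 5 in PGC-like cells of E7.5, 1 in PGC-like cells of E8.5 to E10.5 and 1 in germ cells of E11.5 to E13.5, and 7 in germ cells of E16.5 to E18.5. After each cell was thinned to 50000 UMIs these medians were 4, 2, 0, 0 and 4.

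Hoxb1, the first gene of its cluster, led the mesoderm-like cells of E7.5. Hoxb1 had 146.7 and 252 CPM in the mesoderm-like sums and 0.288, 3.37 and 8.21 CPM in the PGC-like sums of E7.5. The groups lay far apart, and Hoxb1 was lower in PGC-like cells by a log2 difference of -5.47 ± 0.72 (SE, edgeR quasi-likelihood test, adjusted p = 0.00574). Hoxb1 had a UMI in 98.4% of mesoderm-like cells (93.3% thinned) and in 49.1% of PGC-like cells (17.2% thinned). Hoxa2, which patterns the hindbrain, had 14.2 and 31.96 CPM against 0.288, 0.714 and 1.44 CPM (-4.88 ± 0.88, adjusted p = 0.0176), and Hoxb6, a gene of the cluster centre, 17.4 and 21.6 CPM against 1.61, 1.92 and 2.01 CPM (-3.33 ± 0.68, adjusted p = 0.0267). They are among the 4 of 19 tested members that were lower (2.49% of all 12676 genes tested), and 0 were higher (3.82% of all genes). The median log2 difference of the tested members was -2.69, beside 0.021 over all genes, and in 11 of 19 every PGC-like sum lay below both mesoderm-like sums (25.8% of all genes). Hoxd9 did not pass the test, with 19.4 and 20.5 CPM in mesoderm-like and 2.40, 13.2 and 22.7 CPM in PGC-like sums, and was the highest member of the PGC-like cells. The PGC-like sums hold 40 cells in all. In replicate 4, whose sum had the most Hox transcripts (98.6 CPM), 11 of the 12 PGC-like cells lay near the class limit. Their median was 2122 CPM for the PGC markers, 840 CPM for the endoderm markers and 466 CPM for the epiblast markers. Without replicate 1 or replicate 2, each of which leaves 1 mesoderm-like sum whose spread is assumed to be that of the PGC-like sums (1 residual degree of freedom), there were 2 calls, and Hoxa2 (adjusted p = 0.126 and 0.0568) and Hoxb6 (0.102 and 0.884) were lost. Without replicate 4 they stood at 0.0506 and 0.0507.

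Other classes of the early embryo had less. The epiblast-like sum of E6.5 had 3.68 CPM over all members. Mesoderm-like sums of E6.5 had 61.9 and 334 CPM, led by Hoxb1 with 36.6 and 128.2 CPM. The endoderm-like sums had 74.7 ± 99.1 CPM (n = 5), and 1 of them, E7.5 replicate 4, had 249 CPM.

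**Figure D2:**
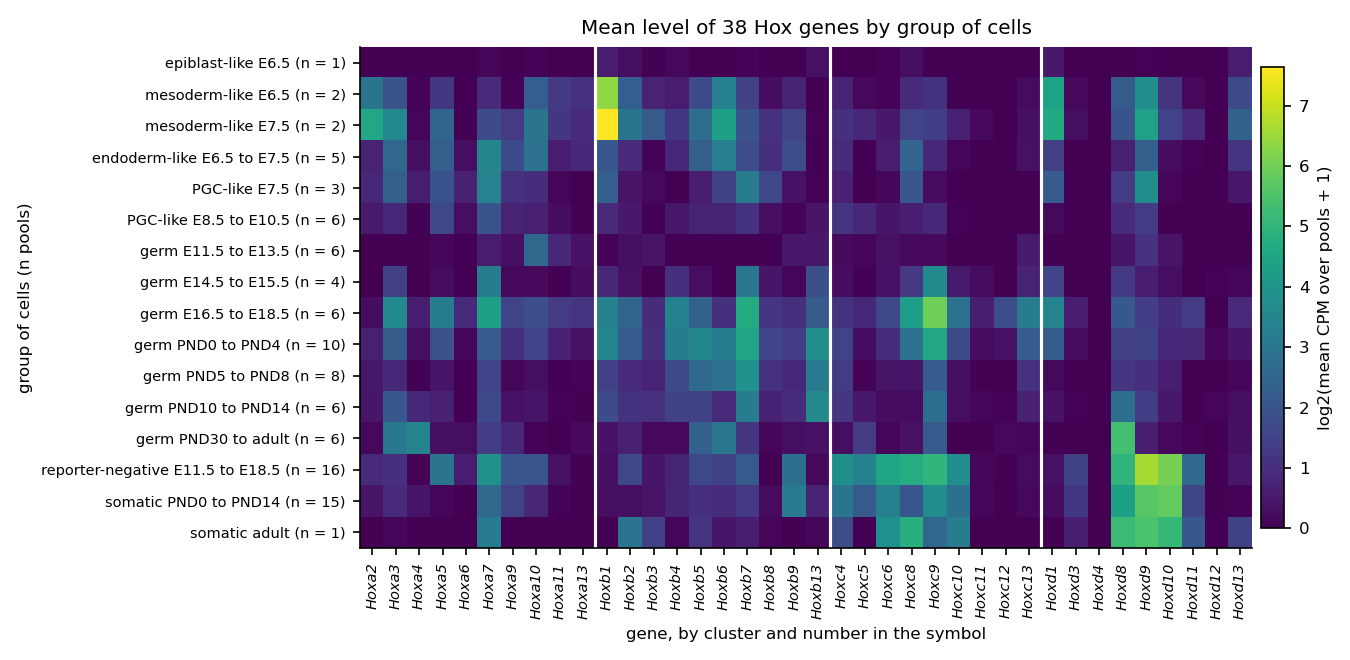
Mean level of 38 members (columns, by cluster and number) in each class and period (rows), coloured by log2(mean CPM over pools + 1). Mesoderm-like cells are bright at positions 1 and 2, and reporter-negative and somatic cells at Hoxc4 to Hoxc10 and Hoxd8 to Hoxd10. Late fetal germ cells are bright across several positions, and germ cells from PND30 on mainly at Hoxd8.

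PGCs had few Hox transcripts during migration and in the early gonad. At E8.5 to E10.5 the members with the highest means were Hoxa7 with 2.85 ± 2.41 CPM and Hoxa5 with 2.18 ± 2.45 CPM (SD, n = 6), and 28.8% of cells had any Hox UMI after thinning (67.5% unthinned). In germ cells of E11.5 to E13.5 only Hoxa10 and Hoxd9 had means of at least 1 CPM, and 29.1% of cells had any Hox UMI after thinning. Between migrating PGCs (E9.5 and E10.5) and gonadal PGCs (E11.5 and E12.5) 8 members could be tested. Hoxa10, a gene of the posterior trunk and reproductive tract, had 0, 0, 0.774, 1.10 and 1.25 CPM in the migrating and 3.43, 4.85, 8.48 and 9.56 CPM in the gonadal sums. All gonadal sums were above all migrating sums, and Hoxa10 rose by 3.38 ± 0.97 on the log2 scale (edgeR, adjusted p = 0.0419), the 1 of 8 members that did (4.01% of 14535 genes) and the 1 whose sums were apart in this way (6.55% of all genes). None fell (5.5% of all genes), 3 of the 8 had an unadjusted p under 0.05, and DESeq2 called Hoxa5 and Hoxb7 lower as well. Without replicate 1 the adjusted p of Hoxa10 was 0.329 and without replicate 2 0.114. By E13.5 Hoxa10 was at 0.660 and 2.05 CPM, and at E15.5 at 0.0959 and 0 CPM. The transcripts were in few cells, 23.7% of 455 for Hoxa10 and 5 of 455 for Hoxa13, a gene of the most posterior position.

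Gonadal somatic cells held transcripts of the centre of the Hoxc and Hoxd clusters. In the reporter-negative sums of E11.5 to E18.5 the highest members were Hoxd9 with 96.9 ± 53.2 CPM (SD, n = 16), Hoxd10 with 67.01 ± 39.7, Hoxc9 with 31.98 ± 17.3, Hoxd8 with 30.8 ± 21.5, Hoxc8 with 25.5 ± 15.97 and Hoxc6 with 22.01 ± 9.66 CPM. Reporter-positive and reporter-negative cells of the same gonads were compared with time-point as a covariate. Hoxd10, which marks lumbar levels of the axis, ranged from 14.2 to 149 CPM (median 58.4) in the negative and from 0 to 7.13 CPM (median 0.4926) in the positive sums. The ranges did not overlap and the log2 difference was -6.49 ± 0.64 (edgeR, adjusted p = 1.13e-09). Hoxd9 ranged from 11.7 to 187 CPM (median 102.8) and from 0 to 11.8 CPM (median 1.41), and differed by -6.21 ± 0.68 (adjusted p = 7.46e-09). The ranges of Hoxd9 overlap by 1 sum, that of the reporter-positive cells of E17.5 replicate 1, which held the 25 somatic cells. Hoxc6, a thoracic gene, did not overlap either, with 9.34 to 44.4 CPM (median 20.1) against 0 to 5.95 CPM (median 0.293) and a difference of -5.40 ± 0.66. Hoxc5 (-6.02 ± 0.88), Hoxc10 (-5.17 ± 1.11) and Hoxc4 (-5.07 ± 0.62) complete the 6 largest differences of that sign. In all 15 of 35 tested members were lower in reporter-positive cells (23.8% of 21368 genes) and 8 were higher (36.5% of all genes). The groups were apart in 2 members, both lower in positive cells (1.79% of all genes). The median of the tested members was -2.42, against 0.377 for all genes. With the cells whose markers went against their gate left out there were also 23 calls.

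The 8 members that were higher in reporter-positive cells lie mostly at the ends of the clusters. They were Hoxa13 (4.65 ± 0.92), Hoxc13 (4.37 ± 0.79), Hoxc12 (4.03 ± 0.99), Hoxb8 (3.96 ± 1.44), Hoxb13 (3.74 ± 0.67), Hoxb1 (3.28 ± 0.75), Hoxd1 and Hoxa11, all on the log2 scale. Their levels were low. Hoxc13 had 0 to 13.9 CPM (median 0.883) in the positive and 0 to 1.63 CPM in the negative sums, and Hoxb1 0 to 17.9 CPM (median 0.462) against 0 to 1.63 CPM. In germ cells of E11.5 to E13.5 the 10 cells with most of it held 95.7% of the Hoxc13 UMIs. Hoxc12 was not called with DESeq2, where its difference was -0.10. With replicate 1 left out 13 members were called, 3 of them higher, and Hoxb1, Hoxb13, Hoxc12 and Hoxb8 had adjusted p = 0.167, 0.0682, 0.0982 and 0.59. With replicate 2 left out 9 were called, 3 of them higher, and Hoxa13, Hoxc12, Hoxb8 and Hoxc10 had adjusted p = 0.0601, 0.141, 0.0574 and 0.0672. Hoxb8 was not called by DESeq2 (adjusted p = 0.689) nor without E17.5 (0.0529).

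Comparisons of germ cells of E16.5 to E18.5 with earlier and later germ cells, and the interaction of class and period, were added after the values by time-point had been seen, so their calls are no independent support of that course. Germ cells of E16.5 to E18.5 had far more Hox transcripts than germ cells of E11.5 to E13.5. Hoxc9, a thoracic gene and the highest member here, had 0, 0.0915, 0.0966, 0.117, 0.220 and 0.344 CPM in the early and 43.8, 47.8, 63.3, 70.2, 71.4 and 72.4 CPM in the late sums. Every late sum was above every early sum, and Hoxc9 rose by 8.09 ± 0.44 on the log2 scale (edgeR, adjusted p = 7.15e-10). It had a UMI in 365 of 432 late cells (84.5%), and as a mean over pools in 85.6% of late cells (69.2% thinned) against 3.96% of early cells (1.02% thinned). Between these times, at E14.5 and E15.5, its sums were 5.21, 0.319, 30.5 and 9.80 CPM. Hoxb7 rose from 0 to 0.145 CPM (median 0.0183) to 18.3 to 33.8 CPM (median 24.96), by 8.69 ± 0.63, and Hoxa3, which shapes thymus and parathyroid, from 0 to 0.0391 CPM to 8.65 to 16.4 CPM (median 11.6), by 9.42 ± 0.70. Hoxc10 (8.501 ± 0.96) and Hoxb4 (8.37 ± 0.74, late 5.34 to 14.01 CPM) rose as well. Hoxc12 had no UMI in the early sums and 0.651 to 5.65 CPM in the late ones, at least 113.7-fold higher when 3 counts over the early group are taken as the floor. Hoxb1 rose from 0 to 0.129 CPM to 6.28 to 17.9 CPM (6.53 ± 0.65). In all 19 of 26 tested members rose (42% of 18286 genes) and 0 fell (31.2% of all genes, with Hoxa10 at -1.55 ± 0.74, adjusted p = 0.0704). In 16 members the groups were apart (40.9% of all genes), and the median of tested members was 4.59 against 0.407 for all genes. The other 13 members did not pass the filter on low counts. Members that were absent early could pass it only through the late sums, so these counts describe the tested members and give no test of the clusters.

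Gonadal somatic markers moved with this rise, and their part in it was not tested. Their 14 genes summed to 12.7 to 65.9 CPM in the early and 197 to 628 CPM in the late germ cell sums, with 7 of 14 genes apart between the groups and none at 0, against 3205 to 5559 CPM in reporter-negative cells of E16.5 to E18.5. The 8 blood markers summed to 13.6 to 388 CPM and 125.3 to 400.2 CPM. The 6 markers of visceral endoderm or gut summed to 4.03 to 77.4 CPM in the early and 408 to 636 CPM in the late germ cell sums, with 3 of 6 genes apart and none at 0 in every sum, and to 15.2 to 64.97 CPM in reporter-negative cells of E16.5 to E18.5. Most of the late sum was Afp, at 333 to 470.05 CPM against at most 10.04 CPM early, and its part was not tested. Hoxd9 and Hoxd10, which were high in the reporter-negative somatic cells of E16.5 to E18.5 (11.7 to 187 and 33.1 to 101.3 CPM), had 0.0404 to 3.05 and 0 to 2.44 CPM in the late germ cell sums and did not pass the test (-0.07 ± 0.92 and 0.99 ± 0.97). Hoxd8, Hoxc6 and Hoxc4 had means of 33.8, 20.02 and 9.01 CPM in the same somatic cells. Their means rose between early and late germ cells, from 0.351 to 3.28, from 0.270 to 2.24 and from 0.138 to 1.19 CPM. By cluster, edgeR called all 6 tested Hoxc members and 3 of 5 tested Hoxd members higher in late germ cells (42% of 18286 genes). Members absent early could be tested only through the late sums, so these counts are no test of the clusters. Hoxc9, Hoxb7 and Hoxa3 had higher means in late germ cells (61.5, 25.02 and 11.7 CPM) than in those somatic cells (25.3, 1.95 and 0.490 CPM).

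**Figure D3:**
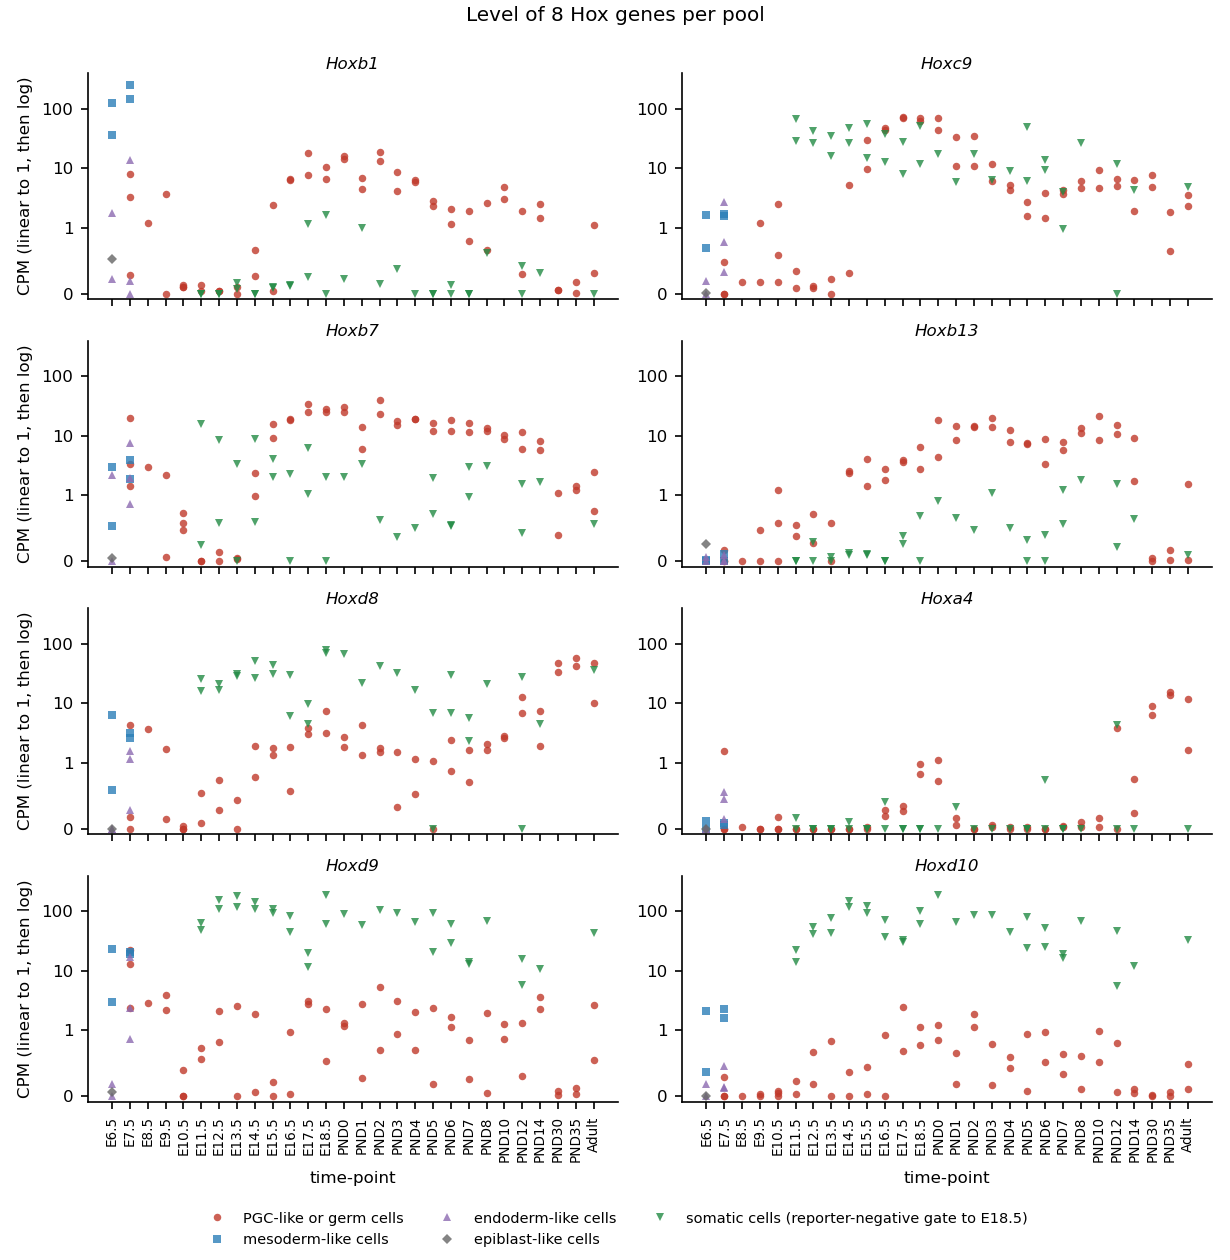
CPM of 8 members by time-point, with 1 point per pool for germ or PGC-like, mesoderm-like, endoderm-like, epiblast-like and somatic or reporter-negative sums. The axis is linear up to 1 CPM and logarithmic above it. In germ cells from E11.5 on, Hoxc9 and Hoxb7 are low up to E13.5 and highest from E16.5 to PND2, and Hoxb13 lies above 1 CPM from E14.5 to PND14. Hoxd8 and Hoxa4 have their highest germ cell points from PND30 on, and Hoxd9 and Hoxd10 lie higher in somatic points than in germ cell points.

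Whether the change with age differed between germ and somatic cells was tested as an interaction of 2 periods and 2 classes, with 6 sums in each of the 4 groups. In 16 of 35 tested members the difference of germ over somatic cells was larger at E16.5 to E18.5 than at E11.5 to E13.5 (18.4% of 21580 genes), and in 0 it was smaller (13.6% of all genes). The median of the tested members was 4.71 and that of all genes 0.673. Members nearly absent from the other groups could pass the filter on low counts only through the late germ cell sums. Hoxb8 had 174 UMIs there and Hoxc12 316, and neither had a UMI in the early sums. These counts therefore describe the tested members and give no test of the clusters. The interaction of Hoxc9 was 8.82 ± 0.73 (edgeR, adjusted p = 1.75e-09). Somatic cells had 16.2 to 71.2 CPM early and 8.63 to 51.3 CPM late, while germ cells went from at most 0.344 CPM to the values above. For Hoxa3 it was 10.42 ± 1.61, for Hoxb7 10.01 ± 1.66, for Hoxb5 10.10 ± 2.15 and for Hoxa5 9.11 ± 1.83, and these members had lower means in late than in early somatic cells. Hoxa6 (10.29 ± 2.95) rests on few counts, with 0 to 3.86 CPM in late germ cells and 0 CPM in every late somatic sum. Without replicate 1 or without replicate 2 there were 9 such members each, without Hoxa6 among them (adjusted p = 0.207 and 0.160).

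Positions in the cluster took different shares of the Hox transcripts in each class. In mesoderm-like cells of E7.5 positions 1 to 4 held 80.02% of them, whereas in germ cells of E11.5 to E13.5 positions 9 and 10 held 59.001% and positions 11 to 13 17.2%. Late fetal germ cells were spread, with 23.4% at positions 1 to 4, 35.7% at 5 to 8, 32.5% at 9 and 10 and 8.4% at 11 to 13. By contrast reporter-negative cells had 60.5% at positions 9 and 10 and 32.1% at 5 to 8, and somatic cells of PND0 to PND14 69.4% at 9 and 10. Germ cells from PND30 on had 68.2% at positions 5 to 8. By cluster, Hoxb held 55.9% in mesoderm-like cells, Hoxa 58.04% in germ cells of E11.5 to E13.5, Hoxc 42.9% in those of E16.5 to E18.5, Hoxb 71.2% at PND5 to PND8 and Hoxd 48.2% from PND30 on, with Hoxd also first in reporter-negative cells (54.2%) and postnatal somatic cells (61.1%). Between germ cells of E11.5 to E13.5 and of E16.5 to E18.5 edgeR called all 6 tested members of positions 1 to 4 higher. So were all 7 of positions 5 to 8, 2 of 7 at 9 and 10 and 4 of 6 at 11 to 13 (42% of 18286 genes). The median log2 differences were 7.25, 5.77, 0.992 and 3.03. These positions hold 12, 11, 7 and 9 members, and those absent early could be tested only through the late sums. This comparison was added after the values were seen, so its counts are no test of position. The shares of transcripts are descriptions without a test.

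**Figure D4:**
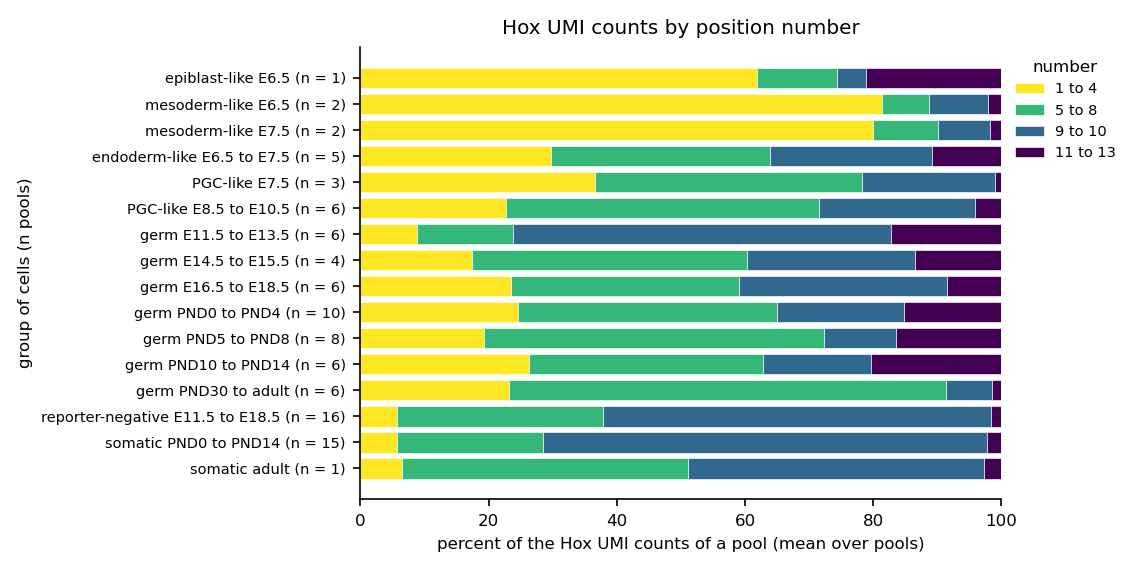
Mean percent of all Hox UMIs held by positions 1 to 4, 5 to 8, 9 to 10 and 11 to 13 in each class and period (stacked bars from 0 to 100). Mesoderm-like cells are mostly positions 1 to 4, reporter-negative and somatic cells mostly 9 to 10, and germ cells from PND30 on mostly 5 to 8.

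After birth germ and somatic cells of the same testes differed in both directions. Hoxd10 ranged from 5.64 to 187 CPM (median 45.9) in 15 somatic sums and from 0.0565 to 1.89 CPM (median 0.605) in 24 germ cell sums of PND0 to PND14. The ranges were apart, and Hoxd10 was higher in somatic cells by 6.94 ± 0.37 (edgeR with time-point as covariate, adjusted p = 4.5e-18). Hoxd9 was apart too, with 5.79 to 105.3 CPM (median 59.4) against 0.0535 to 5.27 CPM (median 1.22) and a difference of 5.39 ± 0.43. Hoxd11 (5.25 ± 1.02), Hoxc5 (4.76 ± 0.93), Hoxc6 (4.58 ± 0.49) and Hoxd3 (4.07 ± 1.29) follow. Of germ cell genes, Hoxb7 lay between 5.78 and 39.5 CPM (median 13.9) in germ and between 0.371 and 3.32 CPM (median 0.980) in somatic sums, without overlap, and was lower in somatic cells by a log2 difference of -3.07 ± 0.34 (adjusted p = 7.38e-10). Hoxb13, the last gene of the Hoxb cluster and a gene of prostate and hindgut, had 1.72 to 21.3 CPM (median 10.0) against 0 to 1.85 CPM (-3.57 ± 0.36). Hoxb1 had 0.306 to 19.04 CPM against 0 to 0.996 CPM (-3.80 ± 0.53), and Hoxc13, Hoxb8 and Hoxb6 differed by -3.02 ± 0.71, -2.98 ± 0.76 and -2.98 ± 0.72. In all 11 of 37 tested members were higher in somatic cells (22.2% of 24598 genes) and 13 were lower (40.1% of all genes), 9 of the lower ones being Hoxb genes, and Hoxb9 alone of the 10 tested Hoxb genes was higher. Groups were apart in 2 members above (2.02% of all genes) and 1 below (4.46%). The median of the tested members was -1.06, beside -0.769 over all genes. With the pool as a block, since both classes come from the same animals, 21 members were called and Hoxd3 was not (adjusted p = 0.125). Without replicate 1 Hoxd11, Hoxc5 and Hoxd3 had adjusted p = 0.334, 0.216 and 0.483, and without replicate 2 Hoxd3, Hoxb8 and Hoxb6 had 0.137, 0.0904 and 0.275.

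The comparisons before and after birth share no sums. All 11 members higher in postnatal somatic cells (100%, beside 70.2% of all genes called so) were among the 15 that were higher in fetal reporter-negative cells (73.3%, beside 75.3%). Hoxb1, Hoxb8, Hoxb13, Hoxc13 and Hoxd1 were higher in germ cells in both, 62.5% of 8 and 38.5% of 13, beside 74.9% and 59.2% over all genes. These shares are a description of lists with few members. Hoxa5 and Hoxb6 were lower in reporter-positive cells in the fit over E11.5 to E18.5 and higher in germ cells after birth. At E16.5 to E18.5 their means were already higher in germ cells (8.21 and 1.03 CPM) than in somatic cells (3.58 and 0.591 CPM). The ranges overlapped, and this period was not tested alone.

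**Figure D5:**
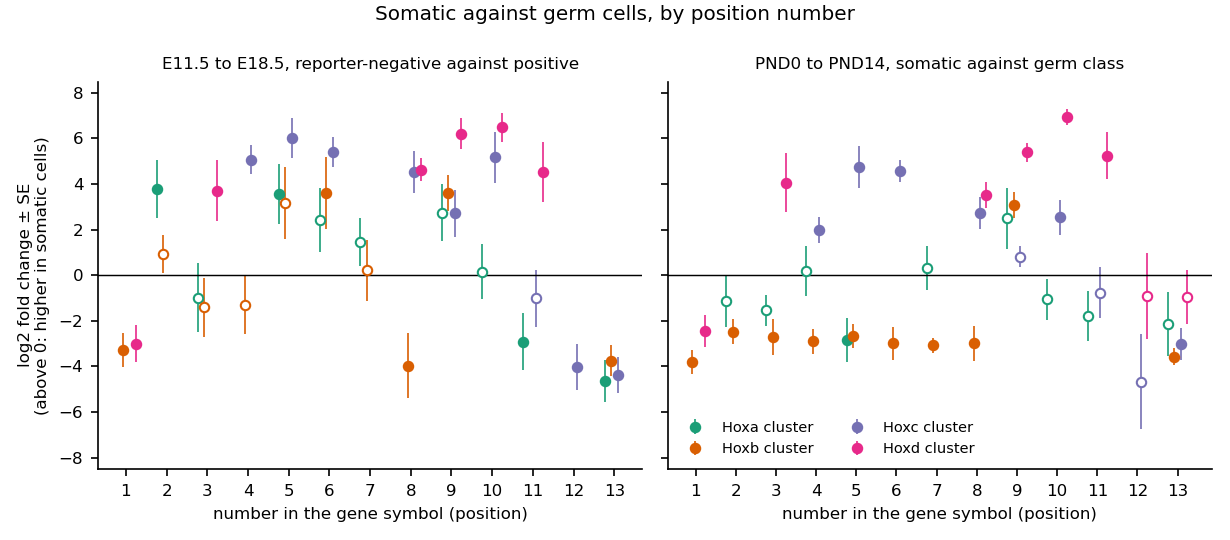
Log2 difference of somatic over germ cells with its standard error, by the number in the gene symbol and coloured by cluster, for reporter-negative over reporter-positive cells of E11.5 to E18.5 (left) and somatic over germ cells of PND0 to PND14 (right). Filled points passed the test, and above 0 is higher in somatic cells. In both panels the filled points of Hoxd8 to Hoxd11 lie above 0 and all filled points at numbers 1 and 13 lie below it.

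From late fetal germ cells to spermatogonia of PND5 to PND8 6 of 7 tested Hoxc genes, 4 of 5 tested Hoxa genes, 4 of 10 tested Hoxb genes and 2 of 5 tested Hoxd genes fell, and Hoxb genes held the largest share of the Hox transcripts at the later age. Hoxc9 fell from 43.8 to 72.4 CPM (median 66.8) to 1.46 to 6.20 CPM (median 3.83), without overlap, a log2 difference of -3.71 ± 0.27 (edgeR, adjusted p = 1.63e-09). Hoxd1 fell from 5.02 to 16.4 CPM to 0 to 0.276 CPM (-5.88 ± 0.74) and Hoxc8, a thoracic gene, from 5.10 to 38.97 CPM to 0.0194 to 1.10 CPM (-5.30 ± 0.66), and Hoxc12, Hoxd11 and Hoxc10 fell by 6.54, 6.03 and 4.55 on the log2 scale. The other way moved 2 members. Hoxb13 rose from 1.82 to 6.62 CPM (median 3.19) to 3.31 to 13.507 CPM (median 7.70), with overlap (1.58 ± 0.34, adjusted p = 0.000487), and Hoxb6 from 0.184 to 2.82 CPM to 1.46 to 17.3 CPM (3.07 ± 0.79). Hoxb7 became the highest member at PND5 to PND8 with 14.1 ± 2.67 CPM (SD, n = 8), followed by Hoxb13 with 8.16 ± 3.12 CPM, and had a UMI in 43.98% of cells (23.8% thinned). Among 27 tested members 16 fell (36.1% of 19564 genes) and 2 rose (32.7% of all genes), and in 11 every later sum lay below every earlier one (27.9% of all genes). The median of the tested members was -1.90 and that of all genes -0.101. Gonadal somatic markers were at 106.3 to 312 CPM in these sums. Without replicate 1 Hoxb13 (1.28) and Hoxa5 had adjusted p = 0.0997 and 0.0765, and without replicate 2 Hoxb6 (1.69) had 0.0908.

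Cells with 4N DNA content at PND30 had another set of Hox transcripts than spermatogonia. Hoxd8 had 0 to 2.39 CPM (median 1.36) in the 8 sums of spermatogonia and 38.5 and 41.9 CPM in the 4N cells of PND30, which hold spermatocytes. Both 4N sums were far above all spermatogonia, and Hoxd8 rose by 5.40 ± 0.80 (edgeR, adjusted p = 8.08e-05). Hoxa4, known for its transcripts in the testis, had 0 to 0.107 CPM against 5.63 and 9.41 CPM (8.22 ± 0.77, adjusted p = 2.02e-06), and Hoxa3 0 to 2.48 CPM against 9.22 and 10.4 CPM (4.04 ± 1.37). Hoxa6 (6.40 ± 1.08), Hoxc5 (5.18 ± 1.32) and Hoxa9 (3.65 ± 1.21) rose at lower levels. Hoxb4 had 1.57 to 3.18 CPM in spermatogonia and no UMI in 4N cells, at least 88.3-fold lower with 3 counts over the 4N group as the floor, and Hoxb8, Hoxc13 and Hoxa10 were at least 42.5-fold, 40.3-fold and 7.76-fold lower. Hoxb13 fell from 3.31 to 13.507 CPM to 0 and 0.115 CPM (-6.34 ± 0.91), Hoxb7 from 11.6 to 18.8 CPM to 0.974 and 1.10 CPM (-3.35 ± 0.36) and Hoxd9 by 5.38 on the log2 scale. In all 6 of 30 tested members rose (38.7% of 22344 genes) and 11 fell (36.1% of all genes), with a median of -2.09 against -0.068 for all genes. Both 4N sums lay above all spermatogonia in 6 members (34.7% of all genes) and below them in 11 (39.9%). Age and cell type cannot be told apart in this comparison. Leaving out either replicate number left 10 calls, with 1 sum of 4N cells, whose spread is then assumed to be that of the spermatogonia. Hoxa3 had adjusted p = 0.106 and 0.142, Hoxa9 0.231 and 0.102, Hoxa10 0.234 and 0.136 and Hoxd9 0.0998 and 0.107 without replicate 1 and without replicate 2. Hoxc5 was not called without replicate 1 (0.121), nor Hoxc13 without replicate 2 (0.108).

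From 4N to 1N cells, which are haploid, Hoxc9 rose. It had 2.24 and 2.60 CPM in 4N, 6.36 and 11.8 CPM in 2N and 6.16 and 18.6 CPM in 1N sums, and 1N exceeded 4N by 2.58 ± 0.65 (edgeR, adjusted p = 0.0156). This was 1 of 18 tested members (16.8% of 20269 genes), and 0 were lower in 1N (12.2% of all genes, Hoxb7 and Hoxb6 at unadjusted p = 0.0219 and 0.0231). Hoxd8 had 38.5 and 41.9 CPM in 4N, 41.8 and 53.7 CPM in 2N and 25.8 and 46.7 CPM in 1N sums, and the 1N and 4N ranges overlap (0.03 ± 0.38). Both 1N sums lay above both 4N sums in 4 members (34.1% of all genes) and below them in 6 (38.5%). With the pool as a block 4 members were called, Hoxc9 and Hoxc12 higher and Hoxb7 and Hoxb6 lower in 1N. Leaving out a replicate leaves no test: the difference of Hoxc9 was then 3.26 or 1.32.

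In all germ cells from PND30 on Hoxd8 was the highest member with 39.8 ± 16.6 CPM (SD, n = 6) and a UMI in 2188 of 2469 cells (88.6%), and the 10 cells with most of it held 2.66% of its UMIs. Its sums were 34.04 to 58.4 CPM but for adult replicate 1 with 10.1 CPM, the pool with more somatic markers. The germ cells of that pool also had fewer transcripts of the spermatid markers, with a median of 30.2 CPM per cell against 294 to 996 CPM in the other pools. The part of either marker list was not tested. Hoxa4 had 9.75 ± 5.18 CPM with 1.66 CPM in the same pool, and from E11.5 to PND10 no germ cell sum of Hoxa4 was above 1.13 CPM. As means at these ages Hoxb1 had 0.295 CPM, Hoxc4 0.213 CPM and Hoxb4 0.126 CPM.

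The genes numbered 4, which share descent from 1 ancestral gene and pattern the neck region, show how far members of 1 number differed. Hoxb4 was highest in late fetal and newborn germ cells, with 9.23 ± 2.92 CPM at E16.5 to E18.5 (SD, n = 6), 8.28 ± 4.53 CPM at PND0 to PND4 (n = 10), 2.46 ± 0.575 CPM at PND5 to PND8 (n = 8) and 0.126 ± 0.194 CPM from PND30 on (n = 6), and it was lower in somatic cells of PND0 to PND14 (-2.90 ± 0.55, edgeR, adjusted p = 2.69e-05). Hoxc4 was highest in somatic cells, with 12.9 ± 8.59 CPM in reporter-negative cells (n = 16) and 6.64 ± 7.23 CPM in somatic cells after birth (n = 15), where it was higher than in germ cells (1.99 ± 0.56, adjusted p = 0.00256). In germ cells its means stayed between 0.138 and 1.96 CPM from E11.5 on. Hoxa4 had no UMI in germ cells of E11.5 to E13.5, 0.485 ± 0.331 CPM at E16.5 to E18.5 and 0.0283 ± 0.0357 CPM at PND5 to PND8, and its level from PND30 on was the highest of the 3 detected genes at those ages. Hoxd4 was at 0 throughout, but this level is uncertain. Other genes of the same strand share 52.3% of its exonic bases, and a separate row named Hoxd4.1 held 68 UMIs.

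In germ cells from birth to PND14 Hoxb genes were among the highest members. At PND0 to PND4 Hoxc9 (23.3 ± 21.9 CPM, n = 10) and Hoxb7 (21.1 ± 9.34 CPM) led, followed by Hoxb13 (12.96 ± 4.82 CPM), Hoxb5 (10.3 ± 10.1 CPM) and Hoxb1 (9.93 ± 5.32 CPM). The spread of Hoxc9 covers a range from 4.31 to 70.996 CPM within these days. At PND10 to PND14 Hoxb13 was first with 11.1 ± 6.58 CPM (n = 6), before Hoxb7 with 8.496 ± 2.38 CPM, Hoxd8 with 5.78 ± 4.25 CPM and Hoxc9 with 5.73 ± 2.49 CPM. The intervals of 1 SD of neighbours in this order overlap.

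Within the gonad, parts and ages did not differ past the threshold in somatic cells. Reporter-negative cells of the distal part of E13.5 to E16.5 gonads had 52.4 to 271 CPM of Hoxd9 (median 126.3) and those of the proximal part 23.4 to 153 CPM (median 72.9). The ranges overlap, and the difference of 0.85 ± 0.35 had an unadjusted p of 0.0214. Among 18 tested members 0 were called in either direction by edgeR (0.0% of 13778 genes), with 5 at an unadjusted p under 0.05 and 0 by DESeq2. Without replicate 2 Hoxd9 was called (2.07 ± 0.36, adjusted p = 0.0162). Between reporter-negative cells of E11.5 to E12.5 and of E16.5 to E18.5 edgeR called 0 of 12 members higher (1.08% of 12568 genes) and 0 lower (0.278% of all genes), with 1 at an unadjusted p under 0.05. That member, Hoxa7, named after its values were seen, had 19.9 to 48.8 CPM early and 0 to 8.87 CPM late without overlap (2.46% of all genes), a difference of -3.25 ± 0.83 with adjusted p = 0.0701. It was the 1 member whose sums were apart, and DESeq2 called it.

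The Pbx, Meis and Pknox partners of Hox proteins differed between the gates. All 9 cofactors passed the test between reporter-positive and reporter-negative cells, 7 lower (23.8% of all genes) and 2 higher in positive cells (36.5%). Meis1 had means of 117.01 CPM in negative and 10.7 CPM in positive sums (-4.53 ± 0.42, edgeR, adjusted p = 2.97e-10) and Pknox2 49.9 and 2.78 CPM (-5.06 ± 0.55), whereas Pbx4 (1.95 ± 0.57) and Pbx2 (1.25 ± 0.29) were higher in positive cells. After birth 5 of 9 were higher (22.2% of all genes) and 2 lower (40.1%) in somatic cells. In germ cells 8 of 9 rose (42% of all genes) and 1 fell (31.2%) from E11.5 to E13.5 to E16.5 to E18.5, among them Meis1 from 1.82 to 22.7 CPM (3.06 ± 0.55), and 7 of 9 fell (36.1% of all genes) and 1 rose (32.7%) from there to PND5 to PND8. In 4N cells 4 rose (38.7% of all genes) and 2 fell (36.1%), and Pbx4 went from 27.1 to 325 CPM (4.02 ± 0.22). At E7.5 Pknox2 alone of the 9 was lower in PGC-like cells (2.49% of all genes).

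Of 33 regulators of Hox genes 16 were higher (36.5% of all genes) and 8 lower (23.8%) in reporter-positive fetal cells, and 4 were higher (22.2%) and 23 lower (40.1%) in postnatal somatic cells. Cyp26b1, which breaks down retinoic acid, was lower in positive cells (-5.05 ± 0.63) and Cbx7, a Polycomb reader, higher (4.498 ± 0.42). At E7.5 3 of 32 were higher in PGC-like cells (3.82% of all genes), Prdm1 and Prdm14, which served as class markers, and the Polycomb gene Phc1 (1.34 ± 0.24). Cdx2 fell by 5.22 on the log2 scale from migrating to gonadal PGCs and rose again at E16.5 to E18.5 (4.17 ± 0.99), where 11 of 32 rose (42% of all genes) and 14 fell (31.2%), with Suz12 of Polycomb complex 2 down by a log2 difference of -2.10 ± 0.22. From spermatogonia to 4N cells 7 of 31 rose (38.7% of all genes) and 19 fell (36.1%), with Cbx2 at -6.48 ± 0.42 and Cbx8 at -8.64 ± 0.48. Among transcripts within and beside the clusters, 10 of 13 listed genes were in the table. Hoxd3os1, antisense in the Hoxd cluster, was lower in reporter-positive cells (-5.28 ± 0.65), higher in postnatal somatic cells (4.31 ± 0.61) and rose in 4N cells from a mean of 0.774 to 193 CPM (8.38 ± 0.54), and Hoxb5os rose there from 0.422 to 83.7 CPM (8.01 ± 0.77). Of the 8 such genes tested in 4N cells 5 rose (38.7% of all genes) and 2 fell (36.1%). As the strand setting of the counting is not given, reads of these antisense genes and of genes they overlap cannot be told apart.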

How the data were processed

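Single cells were sequenced by STRT-seq. The authors deposited 1 table of raw UMI counts, 31053 genes by 13032 cells, with time-point, genotype, replicate, sort gate and gonad part of each cell; per the labels, it was made on mm10 with CASAVA 1.8, UMI-tools, STAR and featureCounts of Subread. All deposited values were whole, and each cell's sum equalled its deposited number of UMIs. Cells were kept with over 2000 genes and 10000 to 1000000 UMIs, which left out 298 wild-type cells, and 1136 Helq-null cells were not used here.

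Cells were classed by summed marker CPM. At E6.5 to E10.5 the highest of 4 lists had to reach 500 CPM and 2 times the second, and from E11.5 germ or somatic markers had to reach 200 CPM and 3 times the other. This scoring was set after the values were seen. Doublets were not called. UMI counts were summed per pool and class over at least 10 cells and tested across all genes with edgeR 4.0.16 (TMM, filterByExpr, glmQLFit, glmQLFTest) in R 4.3.3, with Benjamini-Hochberg adjustment over all genes and a threshold of 0.05. The standard error is the log2 difference over the square root of F. Fits between gates and classes over several ages had time-point as a covariate. The fits were tested on simulated counts. Alternatives were RLE size factors, no low-count filter, DESeq2 1.42.0, each replicate number left out, the pool as a block, at least 20 cells per sum, stricter class limits (3 and 10 times), and shares of cells after thinning to 50000 UMIs, below which lay 595 cells.

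The members and lists were chosen with earlier results of these data known. Values are given for up to 6 members with the largest rise and 6 with the largest fall past the threshold in each comparison, up to 8 members with the highest mean in a class, and Hoxb1, Hoxa4, Hoxb4, Hoxc4 and Hoxd4. The counts and sums take in 1 member whose own values are not reported here. Other members named were chosen after their values were seen. Bounds of a fold take 3 counts over a group as its floor and cover counting error only. Both classes of a pool come from the same animals. The correlation of their deviations had a median of 0.099 over 16 pairs of fetal gates (6 over 0.1), 0.234 at E7.5, 0.244 between gonad parts, 0.135 after birth and 0.228 between DNA contents. Nothing in the labels says that pools came from separate litters, so p-values measure the spread between these pools.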

Additional observations from a re-analysis of the deposited data

Results flagged for a closer look

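The difference of germ over somatic cells was larger at E16.5 to E18.5 than at E11.5 to E13.5, by the interaction of class and period in edgeR, for Hoxa3 (10.42, adjusted p = 1.74e-05), Hoxa6 (10.29, adjusted p = 0.0129), Hoxb5 (10.10, adjusted p = 0.000709), Hoxb7 (10.01, adjusted p = 4.26e-05), Hoxa5 (9.11, adjusted p = 0.000398) and Hoxc9 (8.82, adjusted p = 1.75e-09), all on the log2 scale. This fit was added after the values by time-point had been seen, and the limit of the low-count filter given above holds here too.

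In 9 of 50 groups of sums 1 sum lay far from the others, which chance gives in about 1 of 20 groups. The endoderm-like sum of E7.5 replicate 4 had 249 CPM of all members together, and the next sum had 64.03 CPM. Among spermatogonia of PND5 to PND8, Hoxa5 was at 1.82 CPM in PND8 replicate 2 (next 0.666 CPM). The other 7 were sums with few counts, whose nearest values lay between 0 and 0.045 CPM. They were Hoxa4 at 0.107 CPM in PND8 replicate 2, Hoxa6 at 0.046 CPM in PND6 replicate 1, Hoxc12 at 0.116 CPM in PND5 replicate 1, Hoxd11 at 0.07 CPM in PND8 replicate 1, and, in germ cells of E11.5 to E13.5, Hoxa3 at 0.039 CPM in E12.5 replicate 2, Hoxb7 at 0.145 CPM in E12.5 replicate 1 and Hoxc10 at 0.037 CPM in E13.5 replicate 1.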

How the results depend on the processing

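Counts below are Hox members called by edgeR unless another tool is named, and the cause of each change was not tested. Leaving out 1 replicate number gave 9 to 13 calls between the fetal gates, 2 to 3 at E7.5, 0 to 1 between distal and proximal parts, 0 to 1 between migrating and gonadal PGCs, 10 between 4N cells and spermatogonia and 9 for the interaction. The ranges were 16 after birth, 0 for reporter-negative cells with age, 18 to 19 for late against early fetal germ cells and 13 to 15 for spermatogonia against late fetal germ cells. DESeq2 called 7 members at E7.5, 3 in gonadal PGCs, 1 in reporter-negative cells with age and 4 in 1N against 4N cells. Without the filter on low counts the last 2 comparisons had 1 and 3 calls. The stricter class limits left 3 sums at E7.5 with 1 residual degree of freedom, too few for a spread within each class, so calls of that fit are not given. At E11.5 to E18.5 DESeq2 put Hoxc12 at -0.10, against a call above 0 by edgeR, and called 5 members higher and 17 lower in reporter-positive cells.

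With the replicate block, which pairs the classes of a pool, 20 members were called between the fetal gates, 5 at E7.5, 0 between gonad parts, 21 after birth and 4 in 1N against 4N cells, and of the named members only Hoxd3 after birth lost its call. RLE size factors moved the median log2 difference of all genes from 0.377 to 0.507 between the fetal gates, from -0.068 to 0.210 in 4N cells, from 0.407 to 0.713 in late fetal germ cells, from -0.101 to -0.277 in spermatogonia and from 0.673 to 0.963 for the interaction.

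Thinning to 50000 UMIs lowered the mean share of cells with a UMI of Hoxb1 in mesoderm-like cells of E7.5 from 98.4% to 93.3%, of Hoxc9 from 3.96% to 1.02% at E11.5 to E13.5 and from 85.6% to 69.2% at E16.5 to E18.5, and of Hoxd10 at E16.5 to E18.5 from 18.8% to 3.89%. It lowered that of Hoxb7 at PND5 to PND8 from 43.98% to 23.8%, and from PND30 on that of Hoxd8 from 87.5% to 66.3% and of Hoxa4 from 62.9% to 28.003%. Sums of at least 20 cells could be compared only after birth.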

Other observations

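Reporter-positive cells of E11.5 that carried Blimp1-mVenus alone entered no comparison. Their 29 germ cells had 20.3 CPM of all Hox members together, of which Hoxa10 had 9.30 CPM. The 40 somatic cells of the adult testis had 194 CPM, with Hoxd9 at 43.6 CPM, Hoxd8 at 36.3 CPM and Hoxd10 at 33.01 CPM. A row named Hoxd4.1, which the rule for members did not take, held 68 UMIs in all.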
